A study of Rattus norvegicus with 20 samples.

Results

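The lungs described here came from the 8 rats that inhaled crystalline silica, out of 20 rats in the series. They were taken by their label, as arrays of silica lungs, and read alone to see how far equally exposed animals differed. All 8 were male CDF Fisher 344 rats aged 3 months, an inbred strain, and carry the identifiers 81 to 88. The dose was 15 mg/m3 of inhaled silica, given on 5 days in sessions of 6 h, and the lungs were taken 16 h after the final session. The other 12 rats, of the same strain, sex and age, breathed air and enter only where they are named. RNA of whole lung was hybridised to Illumina rat bead arrays, with 1 array per rat. Of 21792 genes in the table, 9119 had a detection p-value under 0.01 on all 8 silica arrays, and unless stated otherwise the results are about those. Another 2445 were detected on 1 to 7 of the arrays and 10228 on none.

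Inhaled silica particles are taken up by macrophages of the air spaces, which release interleukin 1 and chemokines that draw neutrophils out of the blood. Conducting airways are lined by ciliated cells and by club and other secretory cells, whose products coat the airway surface, while alveoli are lined by type 1 and type 2 cells. A whole lung sample also holds vessels, lymphoid tissue, blood, pleura and, in rodents, heart-type muscle in the walls of the pulmonary veins. In such bulk RNA, fewer cells of a type and less RNA per cell cannot be told apart.

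Promoters are shown for 6 genes whose levels varied between the rats. They are Alb, made by liver cells, Ifit3 and Irf7, induced by interferon, Bmal1, a clock transcription factor, and Cxcl6 and Cxcl1, neutrophil chemokines. Each window of 300 bases spans the start of the gene and comes from RefSeq on the assembly GRCr8, 5′ to 3′ on the strand of the gene. Capitals mark the motif searched, and a match describes letters and not a site in use. In Alb (chr14:17906930-17907229, minus strand) they mark a relaxed form of the element bound by hepatocyte nuclear factor 1, present on either strand in 0.0807% of 33469 promoters. In Ifit3 (chr1:241527076-241527375, plus strand) and Irf7 (chr1:205799974-205800273, minus strand) they mark the interferon-stimulated response element, read on the opposite strand and present in 3.92% of promoters. In Bmal1 (chr1:176766078-176766377, plus strand) they mark TAGGTCA, the core of the element bound by ROR and REV-ERB receptors, present in 2.63%. In Cxcl6 (chr14:17596368-17596667, minus strand) and Cxcl1 (chr14:17479272-17479571, minus strand) they mark a kappa B element, present in 0.0747%. Each window held a single match of its motif, and both strands were searched. The first motif was found in 1 of 6 liver-typical genes searched, the second in 2 of 3 interferon-induced genes, the third in 1 of 4 clock genes and the fourth in 2 of 3 chemokines that had an entry.
Alb: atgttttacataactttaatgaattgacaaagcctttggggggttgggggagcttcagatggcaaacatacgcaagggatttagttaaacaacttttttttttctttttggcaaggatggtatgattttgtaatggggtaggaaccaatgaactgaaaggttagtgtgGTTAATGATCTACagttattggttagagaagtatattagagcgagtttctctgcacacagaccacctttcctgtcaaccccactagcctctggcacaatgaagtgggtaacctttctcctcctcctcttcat
Ifit3: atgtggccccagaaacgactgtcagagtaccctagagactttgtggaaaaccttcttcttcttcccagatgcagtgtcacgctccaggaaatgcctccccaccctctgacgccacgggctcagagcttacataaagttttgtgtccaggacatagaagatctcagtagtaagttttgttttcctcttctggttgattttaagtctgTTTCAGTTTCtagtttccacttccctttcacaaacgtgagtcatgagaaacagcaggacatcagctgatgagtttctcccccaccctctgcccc
Irf7: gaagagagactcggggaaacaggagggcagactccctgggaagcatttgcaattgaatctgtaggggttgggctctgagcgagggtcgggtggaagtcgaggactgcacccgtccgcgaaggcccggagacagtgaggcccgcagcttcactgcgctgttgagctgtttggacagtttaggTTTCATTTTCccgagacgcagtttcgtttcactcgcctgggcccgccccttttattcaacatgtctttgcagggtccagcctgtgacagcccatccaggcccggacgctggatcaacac
Bmal1: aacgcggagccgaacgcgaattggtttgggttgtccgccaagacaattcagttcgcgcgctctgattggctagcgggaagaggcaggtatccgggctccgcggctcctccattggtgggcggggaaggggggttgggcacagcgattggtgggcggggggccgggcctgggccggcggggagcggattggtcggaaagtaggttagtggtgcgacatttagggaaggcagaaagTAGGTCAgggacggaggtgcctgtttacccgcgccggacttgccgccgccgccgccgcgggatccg
Cxcl6: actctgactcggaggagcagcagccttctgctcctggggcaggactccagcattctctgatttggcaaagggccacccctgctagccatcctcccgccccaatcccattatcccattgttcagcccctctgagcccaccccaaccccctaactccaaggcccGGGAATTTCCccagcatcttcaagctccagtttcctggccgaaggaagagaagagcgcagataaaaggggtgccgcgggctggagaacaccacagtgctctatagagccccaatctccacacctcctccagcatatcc
Cxcl1: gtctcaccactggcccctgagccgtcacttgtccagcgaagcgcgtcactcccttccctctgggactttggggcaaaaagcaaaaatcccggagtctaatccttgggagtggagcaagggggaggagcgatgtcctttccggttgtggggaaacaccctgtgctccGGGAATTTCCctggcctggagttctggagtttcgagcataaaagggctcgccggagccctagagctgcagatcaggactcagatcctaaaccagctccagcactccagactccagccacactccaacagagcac

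Lung markers were present in all 8 animals. Sftpc, the surfactant protein of alveolar type 2 cells, had a log2 intensity of 14.00 to 14.22, and Ager of type 1 cells 12.67 to 12.84. Scgb1a1, the main secretory protein of club cells, lay between 14.17 and 14.42. Marco of macrophages, S100a9 of neutrophils, Adipoq of fat and Rag1 and Dntt of thymocytes were detected on none of the 8 arrays, while Cd68 (11.46 to 11.80) and S100a8 (10.07 to 10.90) were detected on all. Rat 86 stood apart in array quality before any gene was read: its array had the highest median intensity, 98.6 units against 67.0 to 80.0 on the others, and the fewest detected genes, 9480 against 10294 to 10816. Pairs of silica arrays correlated at 0.986 to 0.996 across genes, which are not independent replicates.

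Most genes differed little between the silica lungs. The median SD over the 8 rats was 0.125 on the log2 scale, the median ratio of highest to lowest animal was 1.29-fold, and 83.2% of genes stayed within a 1.5-fold range. The error of the bead averages was smaller, with a median of 0.0519 log2 units, and 60.5% of genes had an SD over 2 times their own bead error. A range of at least 2-fold was found in 233 of 9119 genes (2.56%), of which 120 had names and 113 only placeholder identifiers. Without rat 86 the count was 146, and rat 86 was the highest animal for 119 of the 233 (51.1%), against 17.4% of all detected genes. The threshold is a size rule with no test: Capn1 lay just inside it with 2.01-fold, and Cxcl2 and Dnah1 just outside. The count also depends on how background is treated, and was 71 in the authors' deposited log2 values.

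**Figure D1:**
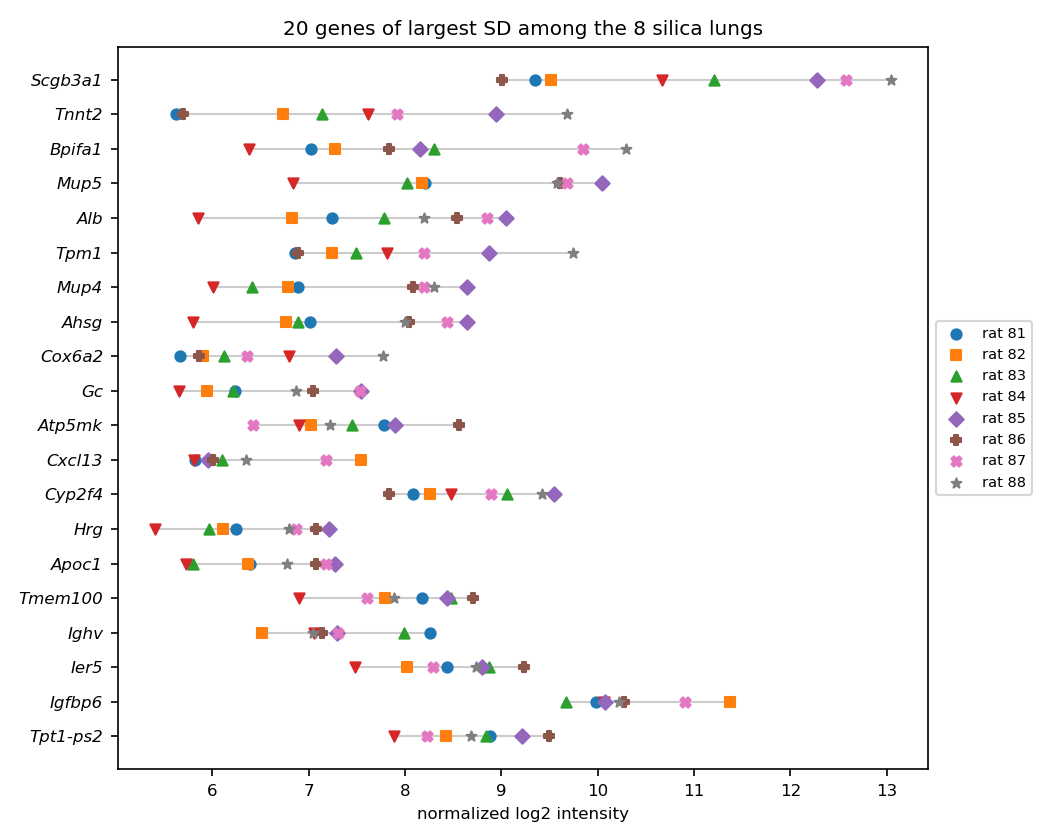
Normalized log2 intensity (horizontal axis) of the 20 named genes with the largest SD among the 8 silica lungs, 1 symbol per rat, with a grey line from the lowest to the highest animal. Scgb3a1 runs from 9.01 in rat 86 to 13.05 in rat 88, and the liver-typical genes Mup5, Alb, Mup4, Ahsg, Gc, Hrg and Apoc1 have rats 85 to 88 on the right.

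Counts of genes with a 2-fold range differed between gene lists. Of the detected epithelial list genes, 5 of 85 had a 2-fold range, all in the club and secretory list, where they made up 5 of 15. Among muscle genes it was 5 of 30, of which 4 were among the 9 cardiac genes detected and the other was Tpm1. Among inflammatory genes it was 9 of 140, of which 4 were interferon-induced and 1 was Alb, counted again below as liver-typical. Among lymphoid genes it was 2 of 57. The alveolar type 1 list (16 detected), alveolar type 2 list (17), T cell list (25), natural killer list (17) and neutrophil list (14) had no such member, which at lists of this size is near the 2.56% of all genes. The counts depend on how background is treated: with limma's default background call the cardiac count was 1, the liver-typical count 4 and the secretory count 5.

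**Figure D2:**
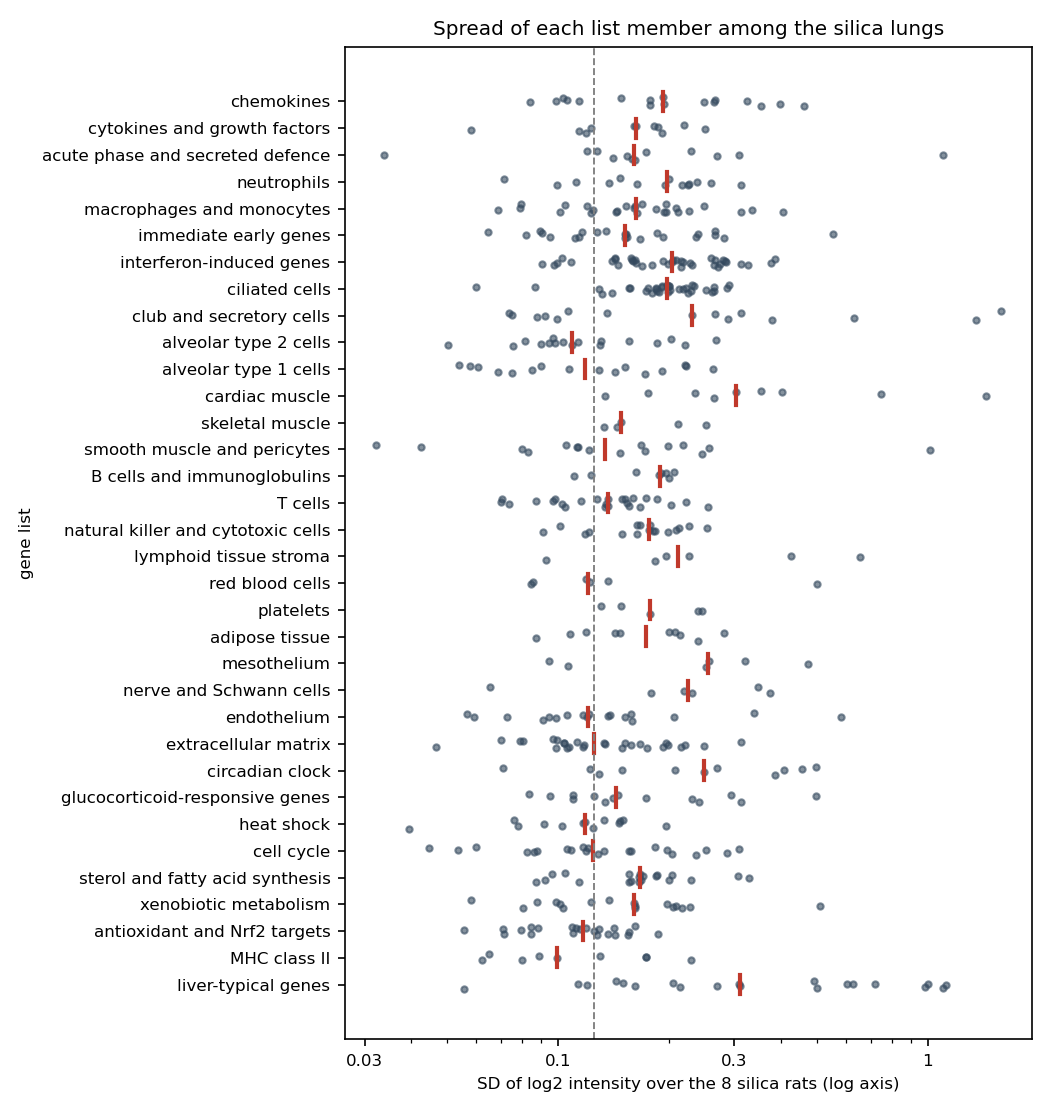
SD of log2 intensity over the 8 silica rats (horizontal, log axis) for each list member detected on all 8 arrays. Lists with at least 5 such members are shown, apart from the ribosomal protein and oxidative phosphorylation lists. Red bars are list medians and the dashed line is the median of all detected genes, 0.125. The list medians run from 0.0994 for MHC class II genes to 0.310 for liver-typical genes.

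A few airway secretory genes varied widely. Scgb3a1, a small secretoglobin of airway secretory cells, had the largest SD of all detected genes, 1.57. Its log2 intensity in rats 81 to 88 was 9.35, 9.52, 11.21, 10.67, 12.28, 9.01, 12.58 and 13.05. Rats 85, 87 and 88 were high and rats 81, 82 and 86 low, a 16.4-fold range. Bpifa1, a secreted airway defence protein listed in the table as Plunc, had 7.02, 7.27, 8.30, 6.38, 8.16, 7.83, 9.84 and 10.29. Here rats 87 and 88 were high and rat 84 lowest, a 15.0-fold range. Cyp2f4, a cytochrome P450 of club cells, ran from 7.84 in rat 86 through a median of 8.68 to 9.55 in rat 85. Agr2, a protein-folding enzyme of mucus-making cells, ran from 8.79 in rat 81 to 9.87 in rat 88. The 15 detected members had a median SD of 0.230 and a median pairwise correlation of 0.16, so the list did not move as one. Scgb1a1 did not share the wide spread, as its 8 values lay between 14.17 and 14.42.

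Ciliated cell genes moved together. None of 34 detected members had a 2-fold range, and their median SD was 0.198, against 0.125 for all detected genes. Their pairwise correlation over the 8 rats had a median of 0.65, against 0.003 for the 41573521 pairs of all detected genes. Rat 88 was the highest animal for 20 of the 34 and rat 85 for 10, while rat 81 was the lowest for 22; the shares over all detected genes were 10.4%, 6.74% and 8.06%. Tekt4, a filament protein of the ciliary axoneme, had 8.41, 8.64, 8.68, 8.24, 8.90, 8.55, 8.85 and 9.04 in rats 81 to 88. Dynlrb2, a dynein light chain, ran from 9.34 in rat 81 to 10.14 in rat 88. Alveolar genes had lower median SDs, 0.109 in the type 2 list and 0.118 in the type 1 list. The largest SDs were those of Nkx2-1, the lung transcription factor (0.27), in the type 2 list and Akap5, a kinase anchor (0.26), in the type 1 list. The contrast was lost with limma's default background call. The medians there were 0.117 for ciliated, 0.116 for type 2 and 0.125 for type 1 genes, against 0.0773 for all detected genes.

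Some genes of heart muscle also spread widely. Tnnt2, the cardiac troponin T, had log2 intensities of 5.62, 6.74, 7.14, 7.62, 8.95, 5.70, 7.92 and 9.68 in rats 81 to 88, a 16.7-fold range. Rats 88 and 85 were highest and rats 81 and 86 lowest. Tpm1, a tropomyosin of heart and smooth muscle, ran from 6.85 in rat 81 to 9.74 in rat 88, and Cox6a2, the respiratory subunit of heart and skeletal muscle, from 5.67 to 7.77 in the same rats. The 9 cardiac genes detected on all arrays did not move as one, with a median pairwise correlation of 0.03. Rat 88 was the highest animal for 5 of them, against 10.4% of all detected genes. Rat 85 was highest for none, which at a list of this size is near the 6.74% of all detected genes. Gja5, the connexin of atrial muscle and arteries, was lowest in rats 85 (9.49) and 88 (9.52). Most cardiac genes were not detected on all arrays. Of 42 on the array, 21 were detected on 1 to 7 arrays and 12 on none. By animal, 11 were detected in rat 86, 14 each in rats 81, 82 and 83, 19 in rat 84, 22 in rat 87, 23 in rat 85 and 26 in rat 88. Myh6, a cardiac myosin heavy chain, gave 6.29, 8.02, 8.32, 10.08, 9.13 and 10.85 in rats 82, 83, 84, 85, 87 and 88. It was not above background in rats 81 and 86. Myl7, the atrial light chain, and Tnni3, the cardiac troponin I, had the same highest animals, 88 and 85. Such genes are described only where they were high enough to be detected, so their ranges are bounds. Skeletal muscle genes did not follow: 5 to 8 of 26 were detected per array, and Acta1, skeletal actin, was detected only in rat 85. Neb, a giant thin filament protein of striated muscle, ran from 6.85 to 7.61, with rat 88 highest. Smooth muscle genes other than Tpm1 spread less, with Smtn, Cnn1 and Des between 1.47-fold and 1.69-fold.

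Particular secretory and cardiac genes correlated over the 8 rats. Tnnt2 correlated with Tpm1 at 0.98, with Cox6a2 at 0.95, with Scgb3a1 at 0.92 and with Cyp2f4 at 0.91. These pairs were chosen for their height and are a description over 8 rats on shared arrays, with no test. Without the 2 rats farthest from the median of the first gene, Tnnt2 with Tpm1 gave 0.98, and Scgb3a1 with Tnnt2 gave 0.86. Other pairs of the same lists were weaker or opposite. Bpifa1 correlated with Tnnt2 at 0.62 (0.21 without the 2 farthest rats) and with Cox6a2 at 0.50 (0.08), and Gja5 correlated with Cyp2f4 at -0.83 and with Bpifa1 at -0.72. Array quality moved with them in part: Scgb3a1 correlated with the number of genes detected at 0.52 and with median intensity at -0.58, and Tnnt2 at 0.44 and -0.57. The part of array quality in these differences was not tested. Of thymocyte genes, 1 or 2 of 9 were detected per array.

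Another group consisted of genes typical of liver, some of which encode plasma proteins. The list was written after Alb and the Mup genes had been seen to vary, so its counts are a description. Of its 46 genes, 41 were on the array and 20 were detected on all 8 arrays, and 9 of the 20 had a 2-fold range (4 with limma's default background call, where the SD of Alb was 0.575 in place of 1.10 and that of Gc 0.174 in place of 0.721). Alb, serum albumin, had log2 intensities of 7.24, 6.83, 7.78, 5.85, 9.05, 8.53, 8.85 and 8.19 in rats 81 to 88, so every one of rats 85 to 88 was above every one of rats 81 to 84. Of the 20 detected members, 12 showed that split, where 71 of all 9119 genes did (0.779%). Ahsg, the plasma glycoprotein fetuin A, ran from 5.79 in rat 84 to 8.65 in rat 85, and Gc, the vitamin D carrier, from 5.66 to 7.55 in the same rats. Mup5, a major urinary protein, ran from 6.84 to 10.04, again from rat 84 to rat 85; the Mup genes are near copies of each other and may share signal. Hrg, a heparin-binding plasma protein, Apoc1, an apolipoprotein, and Bhmt, a methyltransferase of liver and kidney, had ranges of 3.50-fold, 2.93-fold and 2.36-fold.

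Alb correlated with Ahsg at 0.97, with Gc at 0.96 and with Mup5 at 0.95 over the 8 rats. The liver-typical pairs had a median correlation of 0.50, and 31.6% of them reached 0.8, against 1.60% of all gene pairs. Alb and Tnnt2 were less alike, at 0.30: rat 86 was high for Alb and among the lowest for Tnnt2. The brightest members ranged little, as Tf, transferrin, had a range of 1.25-fold and Fgg, a fibrinogen chain, of 1.26-fold. Hpx, the haem scavenger, and Serpina1, an antiprotease, had ranges of 1.74-fold and 1.72-fold. Between 23 and 32 of the 41 liver-typical genes were detected per silica array, and between 18 and 32 per air array. The labels do not say whether rats 81 to 84 and 85 to 88 were handled apart, and the part of handling in the split was not tested.

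**Figure D3:**
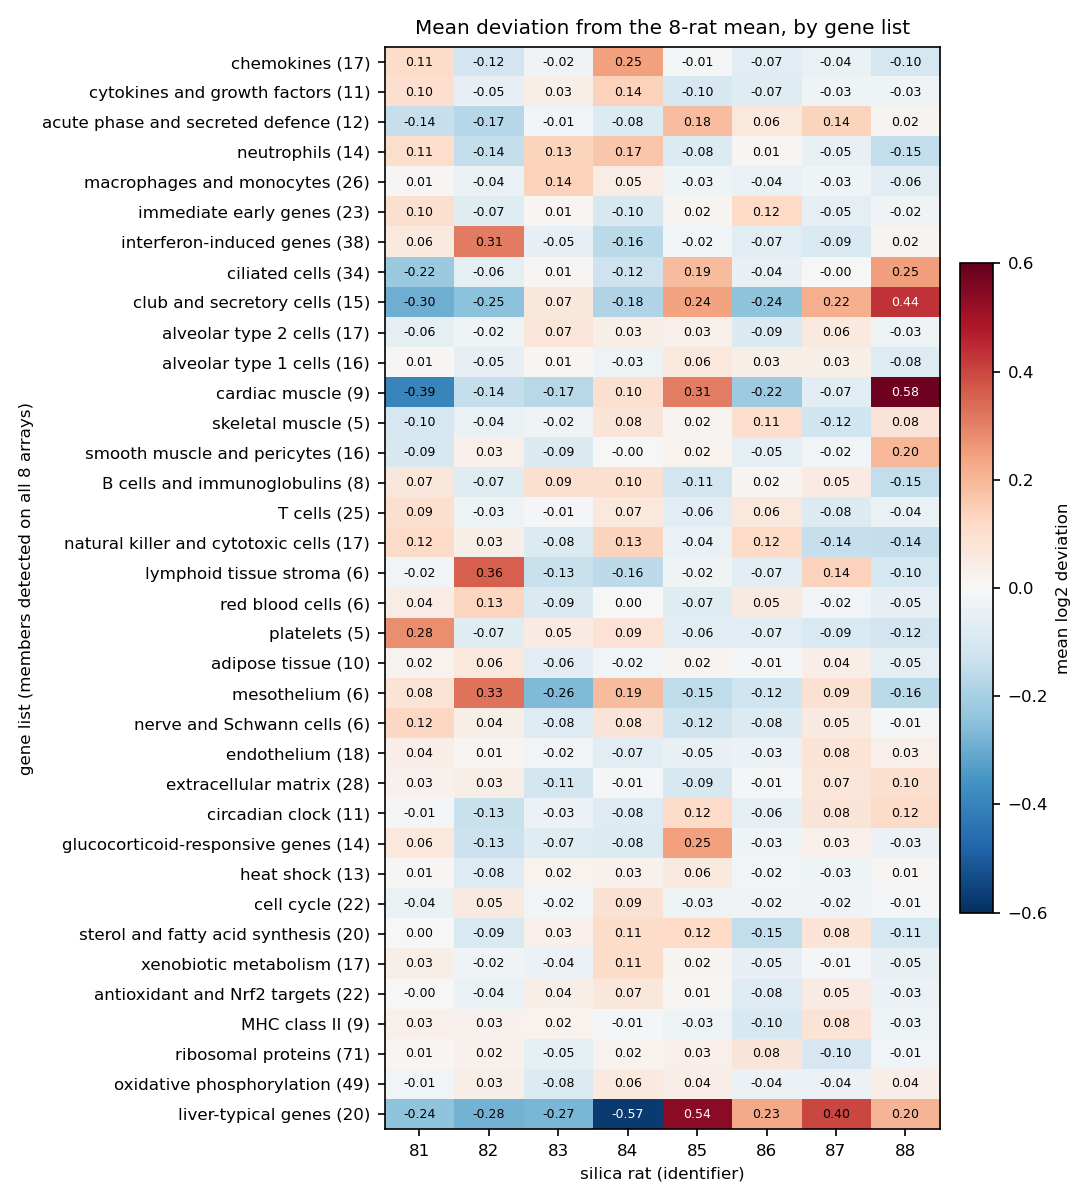
Mean deviation of each gene list from its own 8-rat mean (colour and printed value, log2 units) in each silica rat (columns), for lists with at least 5 members detected on all 8 arrays (number in brackets). Rat 82 has the highest mean for interferon-induced genes (0.31), lymphoid tissue stroma (0.36) and mesothelium (0.33), and rat 88 for cardiac (0.58) and secretory (0.44) genes.

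Inflammatory genes varied moderately. Lcn2, an iron-binding defence protein of neutrophils and epithelium, lay between 9.40 in rat 82 and 10.03 in rat 84, an SD of 0.17. Cxcl6, a neutrophil chemokine listed in the table as Cxcl5, had 7.95, 7.34, 7.87, 8.28, 6.84, 7.39, 7.81 and 7.29 in rats 81 to 88. Rat 84 was highest and rat 85 lowest, a 2.71-fold range. Cxcl1, a second neutrophil chemokine whose promoter is shown above, had 12.35, 11.80, 11.84, 12.42, 11.78, 11.87, 12.27 and 11.99. Rats 84 and 81 were again high and rat 85 lowest, over a narrower 1.56-fold range, and Cxcl6 and Cxcl1 correlated at 0.79. Ccl11, an eosinophil chemokine, ran from 7.22 in rat 87 to 8.42 in rat 83. Ccl20, which attracts dendritic cells and lymphocytes, was instead highest in rat 85 (8.52). Over the 17 detected chemokines, rat 84 was the highest animal for 9, where it was highest for 20.1% of all detected genes.

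No detected cytokine or neutrophil gene had a 2-fold range, which at lists of this size is near the 2.56% of all genes. The median SD was 0.162 in the cytokine list and 0.197 in the neutrophil list, against 0.125 for all detected genes. Il1b, the interleukin released by activated macrophages, had 10.16, 9.84, 10.10, 10.26, 9.75, 10.05, 9.65 and 9.82 in rats 81 to 88, an SD of 0.22. The 11 detected cytokine genes had a median pairwise correlation of 0.14. Rat 84 was the highest animal for 4 of them, against 20.1% of all detected genes. The 14 neutrophil genes had a median pairwise correlation of 0.44. Rats 84, 83 and 81 were the highest animals for 12 of them, against 39.4% of all detected genes. Mmp8, the neutrophil collagenase, was highest in rat 83 (6.64) and lowest in rat 82 (5.67). Among 117 or 118 named genes with a 2-fold range, those most like Il1b were Stfa2, a cysteine protease inhibitor of the stefin family, at 0.87, Ccl11 at 0.86 and Retnlg, a resistin-like protein of neutrophils and marrow, at 0.84. Those least like it were Bhmt at -0.81, Ahsg at -0.77 and Mup5 at -0.77. For Cd3e, an invariant chain of the T cell receptor complex, the least alike were Scgb3a1 at -0.90, Tef at -0.83 and Tnnt2 at -0.77. Cd3e itself varied only 1.18-fold, an SD of 0.0872, and correlated with median intensity at 0.61. The part of array quality was not tested. Of the macrophage genes, Spp1, osteopontin, stood out in rat 83 alone, with 8.80 against 7.47 to 7.88 in the other 7. Mmp12, the macrophage elastase, was also highest in rat 83 (10.91, against a lowest value of 9.95 in rat 87). Immediate early genes were led by Ier5, at 7.48 in rat 84 and 9.24 in rat 86, while Fos had an SD of 0.11.

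Interferon-induced genes were mostly highest in a single animal. Rat 82 was the highest animal for 31 of 38 detected members, against 10.2% of all detected genes, and 4 of the 38 had a 2-fold range. Mx2, an antiviral GTPase, had log2 intensities of 9.20, 10.06, 9.16, 8.98, 9.34, 9.23, 9.26 and 9.49 in rats 81 to 88. Irf7, the transcription factor that amplifies interferon production, was 10.17 in rat 82 and 9.34 to 9.70 in the others. Mx1, a close relative of Mx2 with which it may share signal, was 10.14 in rat 82 and at most 9.66 elsewhere. Usp18, which removes ISG15 from proteins, was 7.62 in rat 82 and at most 7.09 elsewhere. Ifit3 was also highest in rat 82 (7.85), but with rats 86 (7.73) and 83 (7.56) close behind. Across the 8 arrays Ifit3 correlated with median intensity at 0.72 and Mx2 at 0.13, and the part of array quality was not tested. The median pairwise correlation of the list was 0.47.

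No detected B cell, T cell or natural killer gene had a 2-fold range, and 2 of 6 lymphoid stroma genes did. The median SD was 0.189 in the B cell list, 0.136 in the T cell list and 0.176 in the natural killer list, each above the 0.125 of all detected genes. With limma's default background call these medians were 0.0550, 0.0643 and 0.104, against 0.0773 for all detected genes. The B and T cell lists then lay below all genes. Cxcl13, the chemokine that gathers B cells into follicles, had 5.82, 7.54, 6.10, 5.81, 5.96, 6.00, 7.18 and 6.35 in rats 81 to 88, a 3.32-fold range with rats 82 and 87 high. Its SD of 0.657 was 0.156 with limma's default background call. Ccl19, which guides T cells and dendritic cells, was highest in rat 82 (9.59) and lowest in rat 83 (8.32). Ccl21, which shares a receptor with Ccl19, was lowest in the rats that were high for Cxcl13, 87 and 82 (9.22 in rat 82), and highest in rat 81 (9.64). Igfbp6, a growth factor binding protein, was highest in rats 82 (11.37) and 87 (10.91) and correlated with Cxcl13 at 0.92. That value rests on those animals, and was 0.15 without the 2 rats farthest from the Cxcl13 median. Natural killer genes had a median pairwise correlation of 0.49, with rat 86 the highest animal for 10 of 17. That animal was highest for 17.4% of all detected genes, and Nkg7 of natural killer cells correlated with median intensity at 0.52 and with the number of genes detected at -0.54. The immunoglobulin gene Ighv was 8.26 in rat 81 and 7.99 in rat 83, against 6.52 in rat 82.

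Rat 82 was also high for genes of the pleural surface. It was the highest animal for 4 of 6 detected mesothelial genes, against 10.2% of all detected genes. Upk3b, a membrane protein of mesothelium, ran from 7.82 in rat 83 to 9.16 in rat 82, and Msln, mesothelin, from 9.30 to 10.17 in the same rats. Of red cell genes, Ahsp, which binds free alpha globin, was 9.77 in rat 82 and 8.27 in rat 83, and correlated with Upk3b at 0.90. The beta globin gene Hbb did not share this and lay between 14.30 and 14.57. Nr1d1 of the clock ran opposite to both, at -0.86 with Upk3b and -0.86 with Ahsp. Platelet genes were led by another animal, rat 81, the highest for 4 of 5 detected members and for 7.8% of all detected genes. Rat 81 was also highest for Cyp1a1, a cytochrome induced through the aryl hydrocarbon receptor, at 7.85 against a lowest value of 6.13 in rat 85.

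**Figure D4:**
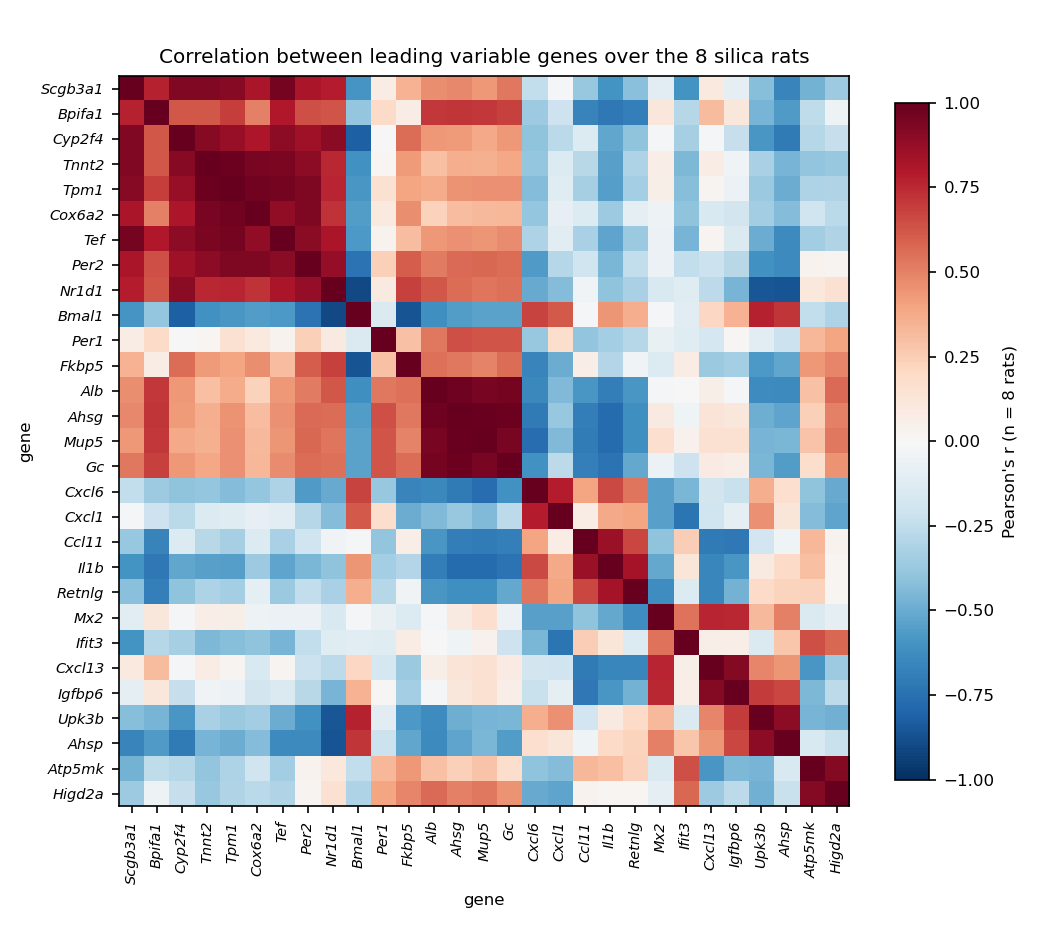
Pearson's r over the 8 silica rats between 29 leading variable genes, chosen after their values had been seen (both axes list the same genes, red positive, blue negative). Blocks appear for secretory, cardiac and clock genes, for liver-typical genes, and for Atp5mk with Higd2a (0.92), while Bmal1 is opposite to Nr1d1 (-0.90).

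Clock genes differed between animals killed at the same interval after exposure, and the clock hour of death is not given in the labels. Of 11 detected members, 4 had a 2-fold range, against 2.56% of all detected genes. The count was 2 with limma's default background call, with median centring and in the authors' deposited log2 values. Nr1d1, the repressor REV-ERB alpha, had 8.58, 8.44, 9.35, 8.63, 9.61, 8.73, 8.92 and 9.50 in rats 81 to 88. Bmal1, which Nr1d1 is known to repress through elements of the kind marked in the promoter above, had 6.78, 6.74, 6.38, 6.84, 6.04, 6.72, 6.69 and 6.46. The 3 rats highest for Nr1d1, 85, 88 and 83, were the 3 lowest for Bmal1, and the correlation was -0.90, also -0.91 without the 2 farthest rats. Per2, a period gene, followed Nr1d1 at 0.88, and Tef, a transcription factor driven by the clock, at 0.82. Tef also followed the airway gene Scgb3a1 at 0.96 and Tnnt2 at 0.94. Per1, a period gene that glucocorticoids induce, did not follow them: it was highest in rat 81 (8.48) and lowest in rat 83 (7.07).

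Several glucocorticoid-responsive genes were highest in rat 85, which was the highest animal for 7 of 14 detected members and for 6.74% of all detected genes. Fkbp5, a chaperone partner of the glucocorticoid receptor, was 10.39 in rat 85 and 9.49 to 9.74 in the other 7. Tsc22d3, an anti-inflammatory target of the same receptor, was 12.49 against 11.68 to 11.98, and Klf15, a metabolic transcription factor, was 8.86 against 8.09 to 8.39. Ddit4, a stress inhibitor of mTOR, was highest in rat 85 too (9.22), with rat 81 next (8.92).

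Some of the spread moved with array quality, whose part was not tested. A single animal stood apart from the other 7, by Dixon's ratio at its 95% limit, for 598 genes (6.56%), of which 172 were through rat 84 and 156 through rat 86. The first principal component of the 9119 genes held 29.9% of their variance and set rat 86 (0.75) against rats 87 (-0.51) and 84 (-0.29). It correlated at -0.84 with the number of genes detected (exact permutation p = 0.020, Spearman's rho -0.48 with p = 0.243) and at 0.87 with median intensity (exact permutation p = 0.012, rho 0.67 with p = 0.083). Neither passed adjustment over 6 relations (both adjusted p = 0.061, exact two-sided tests). Both rested on few rats, rat 86 among them. Without the 2 farthest rats the component correlated with the number of genes detected at 0.29, a change of sign, and with median intensity at 0.54. Its leading genes were Atp5mk, a small subunit of ATP synthase (8.56 in rat 86, 6.42 in rat 87), Tpt1-ps2, a pseudogene copy of Tpt1, and Higd2a and Higd1a, hypoxia-inducible mitochondrial proteins. Tmem100, a membrane protein of lung endothelium, was also at that end, at 8.71 in rat 86 and 6.90 in rat 84. At the other end were Scgb3a1, Tnnt2, Pak4, Glis2, Cxcl13 and Fam110d. Of the 119 genes with a 2-fold range that peaked in rat 86, only 3 belonged to a gene list. The second component (22.0%) had Scgb3a1, Bpifa1, Tnnt2, Alb, Mup5 and Ahsg at one end and Ahsp, Cyp1a1, Upk3b, Bdh2, Retnlg and Cxcl6 at the other.

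A gene from each of 24 lists was then tested against those of the other lists, giving 276 pairs of 24 genes. Where the intended gene was not detected on all arrays, the brightest detected member of its list replaced it. Mybph did so for skeletal muscle, Hbb for red cells, Gja5 for cardiac muscle and Flna for smooth muscle. Other replacements were Tppp3 for ciliated cells, Sprr1a for basal epithelium, Cd1d1 for thymocytes, Bhlhe41 for the clock, Hspb1 for heat shock and Pcna for the cell cycle. Tnnt2, Scgb3a1, Nr1d1 and Bmal1 were not among the 24 genes, so the test does not cover their pairs described above. A single pair passed: Mybph, a myosin-binding protein, correlated with Hbb at 0.97 (exact permutation test over 8 rats, two-sided, p = 0.000149, adjusted p = 0.0411; 0.91 without the 2 farthest rats; Spearman's rho 0.98, adjusted p = 0.0821). Hbb varied 1.20-fold and Mybph 1.56-fold, and the correlation was -0.71 when arrays were only centred on their median. The next pairs were Sprr1a, an epithelial barrier protein, with Hbb at 0.89 (adjusted exact p = 0.349) and Lcn2 with Cd177, a neutrophil surface protein, at 0.81 (adjusted exact p = 0.370). Against the number of genes detected, the largest value among the 24 was that of Hspb1, a small heat shock protein, at 0.96 (adjusted exact permutation p = 0.124), and none of the 24 passed for either measure of array quality.

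Whether rats differ more from each other after silica than after air was tested on 8739 genes detected on all 20 arrays. No gene passed (0 of 8739, 0%; limma on absolute deviations, adjusted p under 0.05), while 275 genes were more variable in silica rats and 305 less variable at an unadjusted p under 0.05. With so few rats per group, a lack of calls does not show that the spreads were equal. The median SD was 0.124 in silica rats and 0.128 in air rats taken within their runs of identifiers. Tnnt2 had an SD of 1.46 in silica rats and 1.95 in air rats (adjusted p = 0.80), Scgb3a1 1.56 and 1.87 (adjusted p = 0.993), and Mup5 1.13 and 1.09 (adjusted p = 0.945), all by limma. Several inflammatory genes had a smaller SD in silica rats without passing the test: Lcn2 had 0.174 in silica and 0.680 in air rats (limma adjusted p = 0.392), Spp1 0.410 and 1.04 (0.417) and Mmp12 0.309 and 0.957 (0.504). The part of signal level in these differences was not tested. Of 11 clock genes tested, 7 had a larger SD in silica rats, against 45.2% of all genes, and none passed. Examples were 0.400 in silica and 0.173 in air rats for Tef, and 0.277 and 0.123 for Bmal1 (both limma adjusted p = 0.631).

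**Figure D5:**
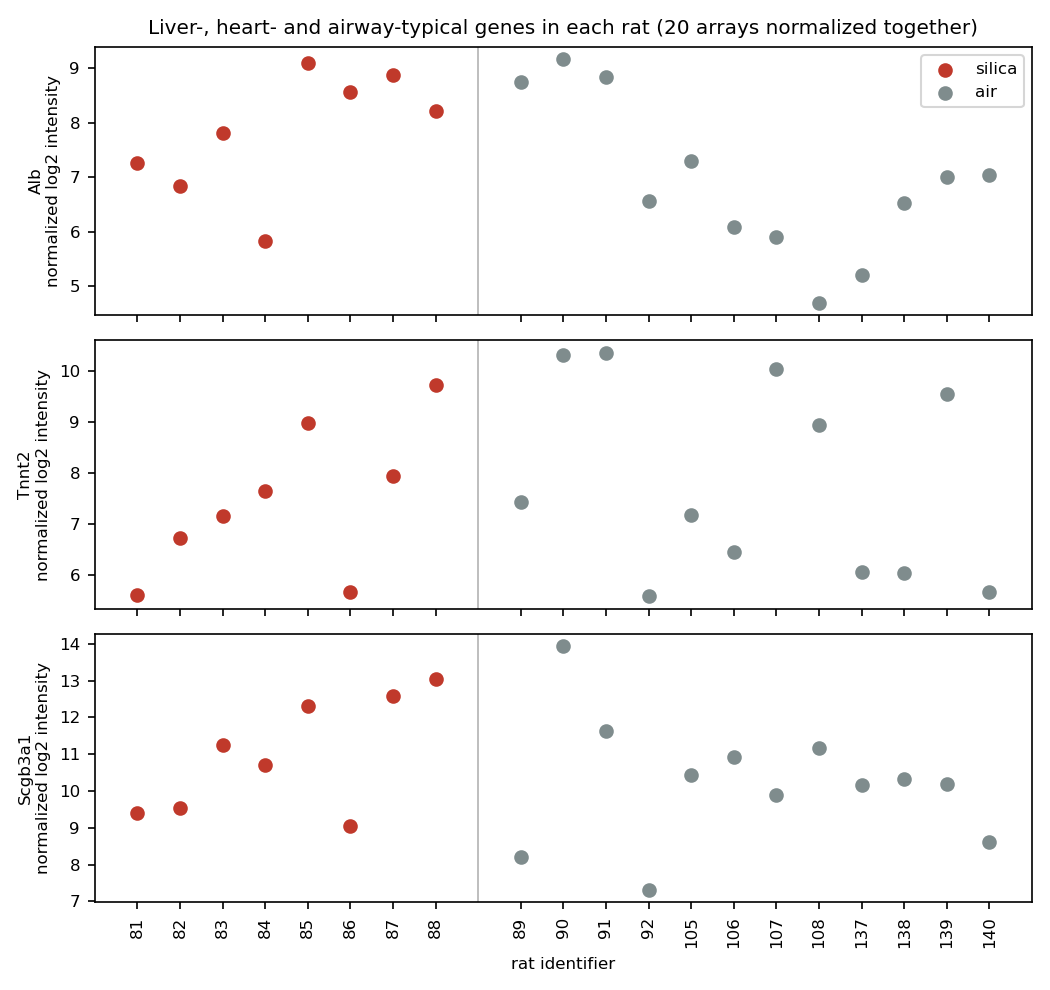
Normalized log2 intensity (vertical axes, 20 arrays normalized together) of Alb, Tnnt2 and Scgb3a1 in each silica rat (red, left) and each air rat (grey, right), by identifier. The values vary in both groups: Tnnt2 spans 5.61 to 9.71 in silica rats and 5.59 to 10.35 in air rats.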

How the data were processed

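Lung RNA of 8 silica and 12 air rats was measured on bead arrays from 375 ng of RNA per sample. The deposited intensities are bead averages per gene, with no background removed and no scaling between arrays as far as their values show, and BeadStudio, lumi and limma are named in the submitters' processing notes without roles. Detection p-values, bead counts (medians of 40 to 43 per gene on silica arrays) and bead standard errors, a score of bead precision, came with them in the deposited table. A further table of normalized log2 values that the authors deposited covers 12763 genes. It served as an alternative, and its exact transformation is not stated.

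The 8 silica arrays were processed alone with limma 3.58.1 in R 4.3.3: normexp with an offset of 16, control mean and SD inferred from 21174 genes of single probes (618 that average several probes left out of that step), log2, then quantile normalization. For the comparison with air all 20 arrays were normalized together. Names were updated through RefSeq (GRCr8): 9918 matched a symbol, 4817 a synonym, 1586 a gene identifier and 5471 were kept. Each gene is represented by its brightest measurement. Spread is the SD or range over 8 rats; correlations were tested by enumerating all orders of the rats, with Benjamini-Hochberg adjustment, in Python 3.11.15. The replicate numbers name rats and pair none across groups, since the labels tie no silica rat to an air rat; a fit with the number as a block is given as an alternative. The variance test was limma on absolute deviations, air rats within runs of consecutive identifiers, checked on simulated data together with the spread and correlation steps.

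Genes were named by a rule: the 20 of largest SD, up to 4 members of largest SD per list, the genes tested in pairs with their 5 most and 3 least similar genes, and the 6 genes at each end of a component. Members, rule and lists were chosen with earlier results of these data known, and the liver-typical list after seeing these values. Genes detected on only some arrays, the globins, and Scgb1a1, Tf, Fgg and the lung markers were named outside the rule. The number of arrays limits precision, and the labels do not say whether rats were housed or processed in batches; no label gives slide or scan. The p-values measure the spread between these rats only.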

Additional observations from a re-analysis of the deposited data

Results flagged for a closer look

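In a group of 8, a value was taken as standing apart when its gap to the nearest other animal was large against the whole range, by Dixon's ratio at its 95% limit. Chance gives about 1 in 20, and 598 of 9119 genes (6.56%) met it, 172 of them through rat 84 and 156 through rat 86. Array 86 itself met it with 9480 genes detected and a median intensity of 98.6.

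Rat 85 stood apart for the glucocorticoid-responsive genes Fkbp5 (10.39), Tsc22d3 (12.49) and Klf15 (8.86). Rat 82 stood apart for Irf7 (10.17), for Mx2 (10.06) and for the mean deviation of the interferon-induced list (0.313). Rat 88 did so for Neb (7.61), Prss30, a serine protease (7.37), and, on the low side, Scd, a fatty acid desaturase (12.76). It also did so for the mean deviation of the smooth muscle list (0.199), although it was highest for only 3 of the 16 members. The widest member was Tpm1, at 9.74 in rat 88 against a mean of 7.89. Rat 87 was apart for Vegfa, the vascular growth factor (10.23), and Lpcat1, an enzyme of surfactant lipid (13.29). Rat 83 was apart for Spp1 (8.80) and, on the low side, Xcl1, a chemokine of cytotoxic lymphocytes (5.45). Rat 84 was apart for Gimap4, a lymphocyte GTPase (10.46), and rat 86, on the low side, for Hspb1 (12.48). What set these animals apart was not tested.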

How the results depend on the processing

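The median SD of 0.125 was 0.0773 with limma's default background call, 0.104 with no background correction, 0.107 with an offset of 50, 0.170 with median centring, 0.0900 in the authors' deposited log2 values and 0.133 over genes detected on at least 4 of 8 arrays. The count of 233 genes with a 2-fold range was in the same settings 81, 101, 109, 246, 71 and 381, and 250 with all 20 arrays normalized together. Leaving out each rat gave medians of 0.118 to 0.128 and counts of 146 (without rat 86) to 224. The single passing pair became 0 with Spearman's rho, median centring and the authors' values, and with each rat left out (0 to 0), where 7 rats cannot reach the threshold for a lone pair; its correlation reversed to -0.71 under median centring. In the variance test the replicate block gave 0 calls, as did every alternative except leaving out rat 84 (range 0 to 2, both less variable in silica rats). The liver-typical split held for 11 to 19 members, an alternative chosen after seeing the data. Of 124 named genes, 59 kept their SD to within the approximate standard error of an SD over 8 values under limma's default background call and 71 in the authors' values. Under that call Cox6a2 had an SD of 0.190 in place of 0.748, Hrg 0.119 in place of 0.628, Tef 0.103 in place of 0.387 and Bmal1 0.0514 in place of 0.269, while Scgb3a1 had 1.69 in place of 1.57. The count of cardiac genes with a 2-fold range was 2 with no background correction, and the interferon-induced count ranged between 1 and 11. Median centring lowered the 598 genes with an animal apart to 370. The cause of these shifts was not tested.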
